A study of Homo sapiens with 6 samples.

Results

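Chromosome 19 carries a large share of the human genes for zinc finger proteins, and the data described here are the transcript levels of those genes in leukaemia cells exposed to a kinase inhibitor. The genes were taken as all protein-coding genes on chromosome 19 whose symbol is ZNF followed by a number, which gave 249 of the 58735 genes in the deposited table. They were then placed in order by their start on the chromosome. The cells were MOLM-13, an established human acute myeloid leukaemia line with a KMT2A rearrangement, labelled wild type in both groups. In the treated group (8p, n = 3) the cells received the compound 8p at 3.5 nM for 48 hours. The sources describe 8p as a synthetic compound that blocks cyclin-dependent kinases and RET, a receptor tyrosine kinase, and the sample labels name CDK8. In the control group (n = 3) untreated cells of the same line were kept for 48 hours, and no solvent is named for them. A difference between the groups may therefore include an effect of the solvent of 8p. The 3 samples of a group are described as independent biological replicates of 1 cell line, so p-values measure the spread between cultures of that line.

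Proteins of this family bind DNA through tandem zinc fingers, each of which contacts a short run of bases. Most of those on chromosome 19 also carry a KRAB domain near the N-terminus, which recruits the corepressor TRIM28 and, through it, the histone methyltransferase SETDB1 and heterochromatin proteins. Many are known to silence transposable elements, and their genes lie in clusters that grew by tandem duplication, so that neighbours are often close relatives.

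Sequencing gave 15249811, 16210861 and 14972069 gene counts in the 8p libraries, against 23485628, 21356491 and 18834611 in the control libraries. Mitochondrially encoded genes took 6.42% to 10.004% of the counts with 8p and 1.64% to 1.91% in controls. The 8p replicate 2 library stood apart from the other 8p libraries. Its chi-square per degree of freedom was 19.3 and 19.4 against them, where the other pair had 2.99. Control replicate 3 had 9.22 and 9.96 against the other control libraries, which had 3.68 against each other. All 10 myeloid marker genes examined had enough counts to be tested, and their summed level was 4606 to 5186 CPM (counts divided by a TMM-scaled library size) with 8p and 1765 to 1887 CPM in controls. Most of that sum was LYZ, and of the 10 genes 6 were called higher and 3 lower, the lower ones being CD33, MPO and FCGR1A. The 6 T and NK cell genes summed to 33.0 to 44.4 CPM with 8p and 34.4 to 36.7 CPM in controls, with NKG7 called higher and CD3D and TRAC lower. The erythroid genes HBB and HBA1 and the epithelial gene EPCAM had no count in any library, and the 5 B cell genes summed to at most 2.29 CPM with 8p and 1.69 CPM in controls. COL1A1, a fibroblast collagen, had 31.8 ± 5.99 CPM with 8p and 0.542 ± 0.297 CPM in controls (SD, n = 3 each), while COL1A2 had no count, KRT8 was called higher and KRT18 lower. Refitted without mitochondrially encoded genes, the zinc finger genes described below had 82 higher and 24 lower calls, close to the counts with them. The part of these marker genes in the results was not tested.

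As a group, the chromosome 19 zinc finger genes took a larger share of the transcripts with 8p. Their summed level was 2463.6, 2393.2 and 2478.6 CPM in the 8p libraries, against 1907.4, 1954.7 and 1929.8 CPM in the control libraries. Every 8p library lay above every control library. Their share of the raw counts was 0.243%, 0.246% and 0.245% with 8p, against 0.193%, 0.196% and 0.188% in controls. In bulk samples, a change in the RNA per cell and a change in the number of cells that express a gene cannot be told apart. No spike-in was used, so each difference is relative to the other transcripts.

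Counts were high enough to test 150 of the 249 genes. The other 99 comprised 69 with no count in any library, 16 with 1 to 9 counts over the 6 libraries and 14 with at least 10, the highest being ZNF154 with 99. Level per length was low in the tested genes, with a median RPKM (CPM divided by gene length in kilobases) of 2.09 with 8p and 1.37 in controls, where the other tested protein-coding genes had medians of 5.18 with 8p and 5.69 in controls.

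Of the 150 genes tested, 82 were higher and 23 lower with 8p at an adjusted p under 0.05 in edgeR's quasi-likelihood test, the threshold for a call throughout, and 45 were not called. That is 54.7% higher and 15.3% lower, where 37.9% and 36.9% of all 13822 tested genes were called higher and lower, 74.7% together. The median log2 fold change was 0.49, against 0.03 over all tested genes and −0.07 over all tested protein-coding genes. Called changes of at least 2-fold were higher for 35 genes and lower for 9. Those are 23.3% and 6%, where 20.9% and 17.5% of all tested genes were so called. All 3 values with 8p lay above all 3 control values for 88 genes, and below them for 30. Those are 58.7% and 20%, against 38.9% and 38% of all tested genes.

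The filter on low counts can let a gene in through the group in which it is high. Among the 150 genes, 11 passed the count limit in every 8p library but not in every control library, and 9 of these were called higher. Another 4 passed in every control library alone, and 1 of them was called lower. The 133 genes that passed in all 6 libraries had 73 higher and 22 lower, or 54.9% and 16.5%, where all tested genes that passed in this way had 35.6% higher and 40.0% lower.

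Numbered ZNF genes elsewhere in the genome had similar counts, and other genes of chromosome 19 did not. Of 206 tested ZNF-numbered protein-coding genes on other chromosomes, 104 were higher and 41 lower (50.5% and 19.9%), with a median log2 fold change of 0.36. The 712 other tested protein-coding genes on chromosome 19 had 252 higher and 309 lower (35.4% and 43.4%), with a median of −0.08. Among those that lie between the first and the last gene of a zinc finger cluster, 31 of 69 were higher and 24 lower, with a median of 0.19. Chromosome 19 also holds 19 genes with other zinc finger symbols, such as ZFP and ZSCAN. Only 6 of them were tested, with 1 higher, 2 lower and a median of −0.13. No test was made of the difference between these lists. The lists plot sets these shares side by side.

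**Figure D1:**
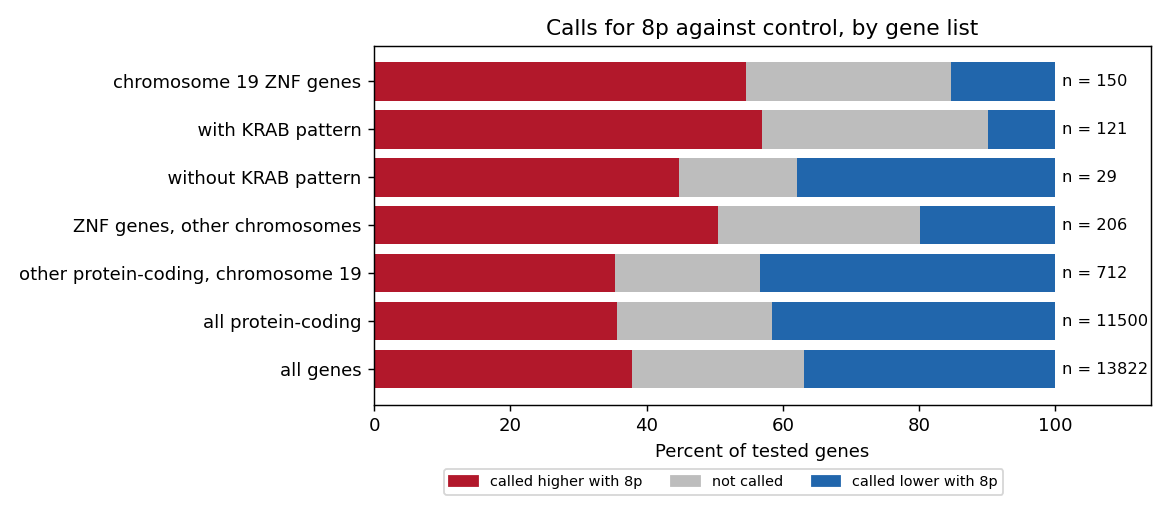
Percent of tested genes called higher (red) and lower (blue) with 8p against control for the chromosome 19 ZNF genes, split by KRAB pattern, and the lists set beside them; grey is not called. The chromosome 19 ZNF genes had 54.7% higher and 15.3% lower, and ZNF genes on other chromosomes 50.5% and 19.9%.

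The contrast with other protein-coding genes differed by level of expression. Among genes with a mean log2 CPM over 4, 27 of 46 chromosome 19 zinc finger genes were higher and 13 lower (58.7% and 28.3%), where other protein-coding genes of that level had 32.8% higher and 48.9% lower. At a mean log2 CPM of 2 to 4 the zinc finger genes had 39 of 64 higher and 7 lower (60.9% and 10.9%), against 38.2% and 35% of other protein-coding genes. Below 2 the zinc finger genes had 16 of 40 higher and 3 lower (40% and 7.5%), and the other genes 43.4% and 19.3%. The share called higher was thus above that of other genes in the upper and middle bins, and not in the lowest.

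Along the chromosome the genes formed 9 clusters of at least 5 genes, numbered here 1 to 9 from the short-arm end, where a gap of over 1 Mb between starts opened a new cluster, and 11 genes lay outside them. Positions are those of GRCh38 in the deposited table. Cluster 3, of 26 genes at chr19:11483427-12640098 from ZNF653 to ZNF791, had 18 genes tested, of which 13 were higher and 0 lower in edgeR, with a median log2 fold change of 0.98. All 18 had a positive fold change, and 8 were called at least 2-fold higher. Of these 18, 6 passed the count limit in every 8p library but not in every control library, namely ZNF433, ZNF441, ZNF564, ZNF763, ZNF844 and ZNF878, and they held 5 of the higher calls and 5 of the 2-fold calls. Among the 12 that passed in all 6 libraries 8 were higher and 0 lower, 3 of them at least 2-fold, with a median of 0.63. DESeq2 called 9 of the genes of this cluster higher. With 1 library left out the number higher in this cluster ran from 10 to 14, and the number lower stayed at 0. Of the genes called higher, ZNF433, ZNF490, ZNF700, ZNF763, ZNF799 and ZNF878 overlap or share sequence with other genes. In ZNF490 70.3% of 100-base transcript windows occur in another gene, and in ZNF763 50.6%. ZNF44, ZNF69, ZNF136, ZNF441, ZNF627, ZNF791 and ZNF844 had no such windows.

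Cluster 4, of 37 genes at chr19:19668796-24129961 from ZNF101 to ZNF254, had few detected genes. No count was found in any library for 25 of its genes, and 26 (70.3%) were not tested. Of the 11 tested, 4 were higher and 2 lower, with a median of 0.27. Those are 36.4% and 18.2%, where all tested genes had 37.9% and 36.9%. The number lower was 1 with upper quartile scaling or without control replicate 2, 8p replicate 1 or 8p replicate 3, and 3 with RLE factors or no filter on low counts.

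Higher calls outnumbered lower ones in the remaining clusters too. Over all tested genes, 37.9% were higher and 36.9% lower. In cluster 2, at chr19:7069444-9793180, 8 of 11 tested genes were higher and 1 lower (median 0.52). Cluster 6, at chr19:36182060-37817300, had 7 of 12 higher and 1 lower (0.48). Cluster 7, at chr19:43525497-45076588, had 10 of 17 higher and 1 lower (0.47). The other protein-coding genes that lie inside cluster 2 had 19 of 32 tested higher and 7 lower, with a median of 0.67. Those inside cluster 7 had 6 of 17 higher and 9 lower (−0.40). Those inside cluster 9 had 2 of 12 higher and 6 lower (−0.25). In no other cluster were more than 4 such genes tested.

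In cluster 8, at chr19:51571298-53580269, 10 of 19 tested genes were higher and 2 lower, with a median of 0.65. Its number lower was 4 without 8p replicate 3. Cluster 9, the largest with 59 genes at chr19:55476332-58481230, had 23 of 44 higher and 10 lower, with a median of 0.49, and held the most lower calls of any cluster. When a gap of 0.5 Mb opened a new cluster, it split into a group of 16 genes, with 5 of 9 tested higher and 3 lower, and a group of 43, with 18 of 35 higher and 7 lower.

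The small clusters 1 and 5 had 2 of 5 and 2 of 3 tested genes higher in edgeR (40% and 66.7%, against 37.9% of all tested genes). None of their genes was lower in edgeR, DESeq2 or limma-voom, and 0 were lower in edgeR at an unadjusted p under 0.05. In cluster 1, 1 gene was lower without control replicate 3 and 2 were lower without 8p replicate 2. The genes outside clusters differed in direction, with 3 of 10 tested higher, 6 lower and a median log2 fold change of −0.63. With the gap of 0.5 Mb, 12 tested genes lay outside clusters, of which 5 were higher and 6 lower, with a median of −0.21. No test was made of the differences between clusters. The plot in chromosomal order shows each gene in its place.

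**Figure D2:**
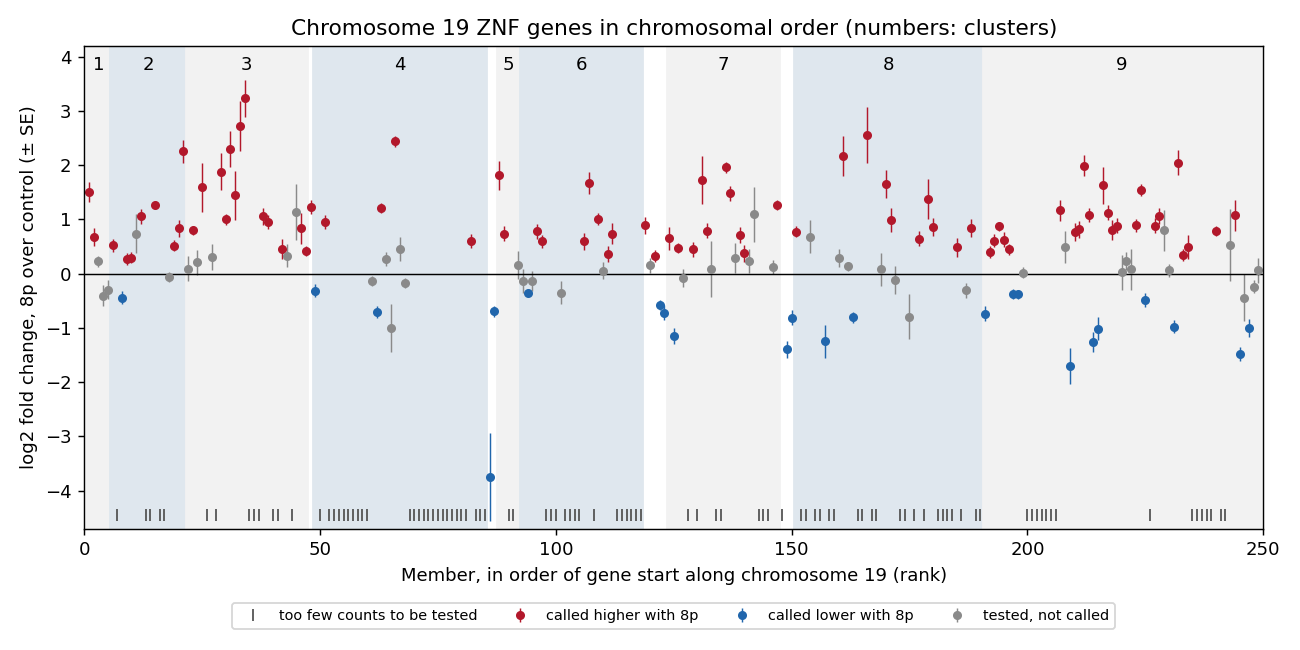
Log2 fold change of each tested chromosome 19 ZNF gene, 8p over control, with its standard error (3 libraries a group), in order of gene start; the horizontal axis is the rank from 1 to 249. Shading marks clusters 1 to 9, red and blue points are genes called higher and lower, grey points were not called and ticks at the bottom mark the 99 genes with too few counts. Cluster 3 holds no blue point, and cluster 4 is mostly ticks.

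**Figure D3:**
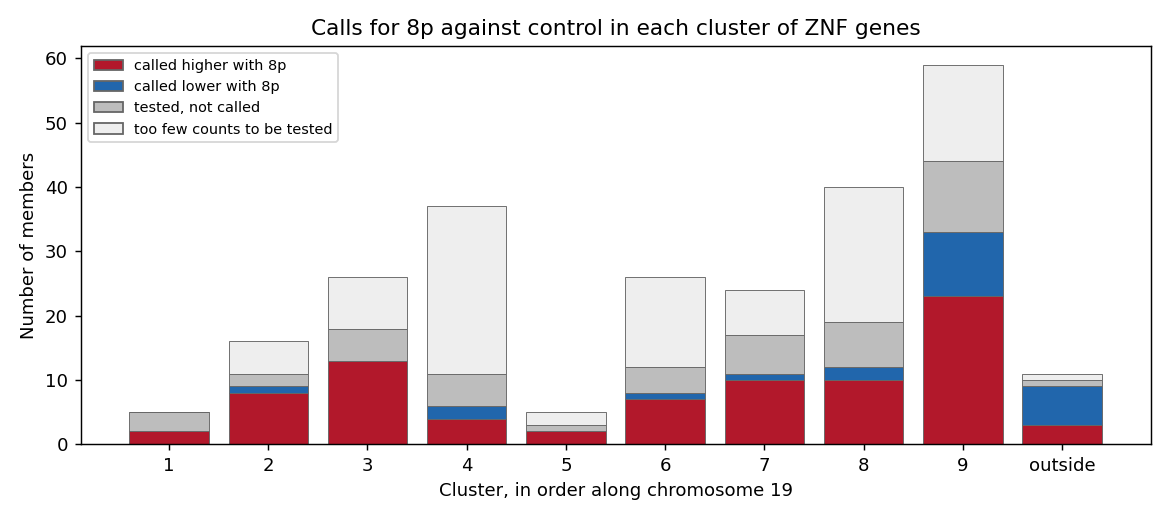
Number of genes in each cluster, and outside clusters, that were called higher, called lower, not called or not tested. Cluster 9 is the largest with 59 genes, and cluster 4 has the highest share not tested, 26 of 37.

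The promoters of these clusters differ in sequence, and the following are printed to show what members of a cluster share. RefSeq promoter sequences (GRCh38.p14, 250 bases before to 50 after the start) were found for 217 of the 249 genes. Several letter patterns were searched on both strands, and not all of them are described. In the stretches below, 40 bases around the pattern CCAATCAG are shown for genes of cluster 3 (ZNF878, ZNF69, ZNF441 and ZNF443) and cluster 4 (ZNF431, ZNF714, ZNF101 and ZNF675), each read 5′ to 3′ on the strand that holds the pattern, which is in capitals.
ZNF878 (chr19:12053011-12053050, minus strand): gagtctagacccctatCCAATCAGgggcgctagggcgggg
ZNF69 (chr19:11887734-11887773, plus strand): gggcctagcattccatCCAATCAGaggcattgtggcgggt
ZNF441 (chr19:11766950-11766989, plus strand): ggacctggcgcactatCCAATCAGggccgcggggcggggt
ZNF443 (chr19:12441119-12441158, minus strand): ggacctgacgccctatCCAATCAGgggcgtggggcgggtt
ZNF431 (chr19:21141937-21141976, plus strand): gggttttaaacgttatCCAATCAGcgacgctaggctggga
ZNF714 (chr19:21082100-21082139, plus strand): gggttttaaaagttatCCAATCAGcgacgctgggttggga
ZNF101 (chr19:19668753-19668792, plus strand): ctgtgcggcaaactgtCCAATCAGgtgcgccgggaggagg
ZNF675 (chr19:23687241-23687280, minus strand): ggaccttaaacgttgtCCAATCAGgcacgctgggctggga

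CCAATCAG contains CCAAT, the letters of the box that the factor NF-Y is known to bind, and was chosen for the search after the sequences had been seen. It was present in 29 of 29 promoters of cluster 4 and in 22 of 25 of cluster 3, and also in 4 of 5 of cluster 1. It was in 0 promoters of clusters 2, 5, 6 and 9. Over all the chromosome 19 zinc finger genes it was in 58 of 217 promoters (26.7%), against 4.88% of the 15627 other protein-coding promoters and 4.16% of all 27305. For ZNF genes on other chromosomes the share was 12.4%. Cluster 4 promoters held a median of 10 CpG dinucleotides and those of cluster 3 a median of 16, where other protein-coding promoters held 22.

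Part of the promoters of clusters 6 and 7 hold a different pattern, ACTACA followed by any 2 bases and then TCCC. It resembles the element bound by ZNF143. Stretches of 40 bases are shown in the same way for ZNF146 and ZNF260 of cluster 6 and for ZNF224, ZNF225 and ZNF180 of cluster 7, with the pattern in capitals.
ZNF146 (chr19:36214959-36214998, minus strand): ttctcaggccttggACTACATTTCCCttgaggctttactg
ZNF260 (chr19:36528368-36528407, plus strand): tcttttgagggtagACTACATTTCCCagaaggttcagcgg
ZNF224 (chr19:44094250-44094289, minus strand): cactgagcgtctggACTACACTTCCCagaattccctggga
ZNF225 (chr19:44113307-44113346, minus strand): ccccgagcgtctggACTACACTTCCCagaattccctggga
ZNF180 (chr19:44500548-44500587, plus strand): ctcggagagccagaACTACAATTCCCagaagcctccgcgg

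The stretches of ZNF224 and ZNF225, which are neighbours, are the same at 38 of 40 bases. The ACTACA pattern was present in 10 of 24 promoters of cluster 6 and 10 of 20 of cluster 7, and in 0 of clusters 3, 4 and 5. It was in 32 of the 217 promoters in all (14.7%), against 2.67% of other protein-coding promoters and 1.96% of all. Another pattern searched, CCGGAAGT, was in 45 of the 217 (20.7%), against 5.99% of other protein-coding promoters. It was in 26 of 54 promoters of cluster 9 and in 25% of those of clusters 6 and 7.

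Calls were then counted by promoter pattern. Among tested genes with a promoter sequence, 14 of 29 with CCAATCAG were higher and 3 lower (median log2 fold change 0.46), and 60 of 107 without it were higher and 17 lower (0.49). With the ACTACA pattern, 10 of 20 were higher and 3 lower (0.30), and without it 64 of 116 were higher and 17 lower (0.52). A match is a description of letters only, and absence from this window says nothing of a factor. Inside cluster 4, ZNF431 and ZNF714 share 37 of the 40 printed bases, and ZNF431 was called higher (log2 fold change 1.21) and ZNF714 lower (−0.71).

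Genes with a KRAB pattern had a smaller share of lower calls than genes without it. A KRAB A-box pattern was found in the coding sequence of 211 of the 249 genes and not in 37, and 1 gene had no coding sequence to search. The search used the first 200 residues of the longest coding sequence, so a gene without a match may still encode a KRAB domain. Of 121 tested genes with the pattern, 69 were higher and 12 lower (57.0% and 9.92%), with a median log2 fold change of 0.60. Of 29 without it, 13 were higher and 11 lower (44.8% and 37.9%), with a median of 0.10. Genes without the pattern were more often highly expressed. Among genes with a mean log2 CPM over 4, 19 of 28 with the pattern were higher and 5 lower, and 8 of 18 without it were higher and 8 lower. Of the genes outside clusters, ZNF507, ZNF526, ZNF536 and ZNF574 lacked the pattern and were lower, and ZNF333 lacked it and was higher. ZNF114 and ZNF473, also outside clusters and lower, carry it. Place and KRAB pattern thus overlap in part, and their shares in the calls were not separated. The difference between genes with and without the pattern was not tested.

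The response was also set beside the number of zinc fingers. The genes encode a median of 12 fingers that match the C2H2 pattern, and at most 36. Genes with 13 or more fingers had 40 of 67 higher and 8 lower, those with 8 to 12 had 28 of 56 higher and 10 lower, and those with 0 to 7 had 14 of 27 higher and 5 lower. Across the 150 tested genes, which share libraries and are not independent replicates, finger number and log2 fold change had a Pearson r of 0.14 and a Spearman rho of 0.12.

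The largest fold change among the tested genes was that of ZNF844, which entered the test through its 8p libraries alone. It is a KRAB gene of cluster 3 (chr19:12064699-12081565, plus strand). Its level was 3.19, 4.37 and 4.59 CPM with 8p, against 0.379, 0.561 and 0.326 CPM in controls, and the groups did not overlap. The log2 fold change reached 3.24 (SE 0.34, adjusted p = 4.25e-07, edgeR). The promoter of ZNF844 is printed with its single match to CCAAT in capitals, searched on both strands.
ZNF844 (chr19:12064481-12064780, plus strand): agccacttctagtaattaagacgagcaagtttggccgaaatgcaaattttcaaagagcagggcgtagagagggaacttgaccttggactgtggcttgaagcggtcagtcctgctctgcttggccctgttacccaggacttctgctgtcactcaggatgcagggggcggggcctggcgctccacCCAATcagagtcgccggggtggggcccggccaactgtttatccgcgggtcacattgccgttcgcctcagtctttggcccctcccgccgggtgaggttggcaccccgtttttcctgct

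ZNF493, a KRAB gene of cluster 4 (chr19:21397119-21427573, plus strand), had the largest rise among genes that passed the count limit in all 6 libraries. Its level was 49.4, 49.3 and 48.8 CPM with 8p, against 10.2, 8.60 and 8.22 CPM in controls. The 8p libraries lay within a narrow range far above the controls, and the log2 fold change was 2.44 (SE 0.10, adjusted p = 1.08e-11, edgeR). Its neighbourhood is the cluster in which 25 genes had no count. The promoter of ZNF493, with the same pattern in capitals, holds 2 copies of CCAAT.
ZNF493 (chr19:21396883-21397182, plus strand): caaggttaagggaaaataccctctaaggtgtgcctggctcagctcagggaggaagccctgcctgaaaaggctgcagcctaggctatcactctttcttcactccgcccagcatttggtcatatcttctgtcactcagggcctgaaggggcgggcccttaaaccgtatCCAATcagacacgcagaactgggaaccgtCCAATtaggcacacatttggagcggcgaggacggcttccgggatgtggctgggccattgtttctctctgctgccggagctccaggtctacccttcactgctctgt

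ZNF224, a KRAB gene of cluster 7 (chr19:44094339-44109886, plus strand), encodes a repressor first described on the aldolase A promoter and a partner of the leukaemia-associated factor WT1. It had 35.4, 39.2 and 40.0 CPM with 8p, against 9.99, 9.58 and 9.79 CPM in controls. The groups lay far apart (log2 fold change 1.96, SE 0.10, adjusted p = 1.09e-10, edgeR). ZNF225, its neighbour with the similar promoter stretch, had a log2 fold change of 1.48 and was called higher.

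Other clusters had leading genes at lower levels. ZNF846 of cluster 2 (chr19:9751993-9793180, minus strand) had 8.52, 8.63 and 11.3 CPM with 8p, against 1.98, 2.29 and 1.63 CPM in controls (log2 fold change 2.26, SE 0.21, adjusted p = 8.44e-08, edgeR). It overlaps AC008752.3 on its own strand, where reads of the pair are hard to separate. ZNF302 of cluster 5 (chr19:34677639-34686397, plus strand) had 4.99, 6.17 and 6.14 CPM with 8p, against 1.64, 1.07 and 2.23 CPM in controls (1.81, SE 0.27, adjusted p = 1.63e-05, edgeR). ZNF554 of cluster 1 (chr19:2819874-2835773, plus strand), the first of the genes on the chromosome, had 7.52, 9.11 and 10.1 CPM with 8p, against 3.16, 2.94 and 3.26 CPM in controls (1.51, SE 0.18, adjusted p = 2.08e-06, edgeR). In all 3 genes the lowest 8p library was above the highest control library.

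The leading genes of clusters 6, 8 and 9 share reads with neighbours or copies and are uncertain to that extent. ZNF585A (chr19:37106734-37172741, minus strand) had 8.72, 7.43 and 7.15 CPM with 8p, against 2.19, 2.76 and 2.34 CPM in controls (log2 fold change 1.67, SE 0.20, adjusted p = 1.46e-06, edgeR). It overlaps ZNF420 on the other strand, and 11.0% of its 100-base transcript windows occur in another gene, mostly its paralog ZNF585B. ZNF701 (chr19:52555457-52587174, plus strand) had 3.39, 3.96 and 4.25 CPM with 8p, against 1.35, 1.17 and 1.14 CPM in controls (1.65, SE 0.27, adjusted p = 4.19e-05, edgeR), and overlaps ZNF808 on its own strand. ZNF814 (chr19:57848731-57889074, minus strand) had 7.05, 6.89 and 10.7 CPM with 8p, against 1.98, 2.24 and 1.69 CPM in controls (2.05, SE 0.23, adjusted p = 9.26e-07, edgeR). It overlaps ZNF587 on the other strand and has 18.0% of its windows in other genes. The groups did not overlap for any of the 3.

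Among the genes outside clusters, ZNF333 (chr19:14689801-14733746, plus strand) had the largest rise. Its level was 24.8, 29.2 and 21.7 CPM with 8p, against 11.6, 10.9 and 9.74 CPM in controls (log2 fold change 1.23, SE 0.13, adjusted p = 5.42e-07, edgeR), with no overlap between groups. ADGRE2 overlaps it on the other strand, and without a known strand setting the reads of the pair cannot be told apart.

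The counts were repeated without genes that overlap or share sequence. Of the 150 tested genes, 93 had no overlapping gene with at least 10% of their counts and under 5% of their windows in another gene. Among these 93, 48 were higher and 15 lower (51.6% and 16.1%), with a median log2 fold change of 0.42.

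Fewer genes fell than rose, and none of the 13 called lower at a mean log2 CPM over 4 fell by as much as 2-fold. The largest fall at a mean log2 CPM of at least 1 within a cluster, among genes whose groups did not overlap, was that of ZNF584, a KRAB gene at the far end of cluster 9 (chr19:58401504-58418327, plus strand). It had 8.45, 7.37 and 7.42 CPM with 8p, against 20.2, 22.0 and 22.9 CPM in controls, with the groups far apart (log2 fold change −1.48, SE 0.13, adjusted p = 3.40e-08, edgeR). It overlaps AC012313.1 on the other strand. In its promoter the capitals mark CCAAT in both orientations and a reverse-strand match to the ACTACA pattern.
ZNF584 (chr19:58408399-58408698, plus strand): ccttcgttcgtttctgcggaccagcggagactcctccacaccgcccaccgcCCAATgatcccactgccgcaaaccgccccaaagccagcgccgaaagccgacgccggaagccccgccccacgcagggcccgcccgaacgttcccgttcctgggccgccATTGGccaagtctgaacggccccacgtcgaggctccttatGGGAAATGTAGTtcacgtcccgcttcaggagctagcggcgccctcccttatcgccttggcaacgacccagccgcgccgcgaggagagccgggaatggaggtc

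ZNF114, outside clusters (chr19:48270102-48287608, plus strand), had 6.46, 5.09 and 4.86 CPM with 8p, against 13.4, 15.05 and 14.7 CPM in controls (log2 fold change −1.40, SE 0.15, adjusted p = 6.33e-07, edgeR). ZNF614 of cluster 8 (chr19:52012765-52030240, minus strand) had 1.46, 1.26 and 1.35 CPM with 8p, against 4.13, 3.224 and 2.23 CPM in controls (−1.24, SE 0.30, adjusted p = 0.00163, edgeR). ZNF576 of cluster 7 (chr19:43596392-43601157, plus strand) had 5.99, 7.31 and 8.37 CPM with 8p, against 14.9, 15.9 and 17.1 CPM in controls (−1.14, SE 0.15, adjusted p = 4.11e-06, edgeR). All 3 were lower in every 8p library than in any control library. ZNF114 and ZNF614 carry the KRAB pattern and ZNF576 does not.

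ZNF714 of cluster 4 (chr19:21082159-21125270, plus strand) had 16.4, 18.9 and 18.8 CPM with 8p, against 30.7, 30.0 and 27.4 CPM in controls (log2 fold change −0.71, SE 0.10, adjusted p = 1.61e-05, edgeR). ZNF414 of cluster 2 (chr19:8509678-8514164, minus strand) had 16.2, 20.3 and 22.0 CPM with 8p, against 24.1, 26.4 and 28.9 CPM in controls (−0.44, SE 0.12, adjusted p = 0.00435, edgeR). Both were lower in every 8p library, but the call of ZNF414 did not survive upper quartile scaling (adjusted p = 0.0749, edgeR).

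The lowest fold change of all belonged to ZNF536, a gene outside clusters known for a role in neurons, and was noticed after the values had been seen. It had 0, 2 and 0 counts with 8p, against 14, 17 and 11 counts in controls. With so few counts the ratio of control over 8p, scaled to library totals, was 15.4 with an exact 95% interval of 4.01 to 131, which covers counting error only. It passed the filter through the control libraries alone, so its call (adjusted p = 6.16e-04, edgeR) carries that limit.

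Per length, the 3 highest genes of the set were ZNF146, ZNF296 and ZNF524, none of which carries the KRAB pattern. ZNF146 (chr19:36214602-36238774, plus strand), whose product consists almost wholly of zinc fingers, had 135, 135 and 129 CPM with 8p, against 163, 163 and 181 CPM in controls. Its mean RPKM was 32.0 with 8p and 40.7 in controls, the groups did not overlap, and the log2 fold change was −0.35 (SE 0.07, adjusted p = 2.95e-04, edgeR). Under upper quartile scaling it was −0.16 and still called. ZNF296 (chr19:45071500-45076588, minus strand) went the other way, with 58.6, 55.2 and 54.3 CPM with 8p, against 21.4, 23.9 and 24.8 CPM in controls (mean RPKM 32.1 with 8p and 13.4 in controls; log2 fold change 1.26, SE 0.09, adjusted p = 3.21e-09, edgeR). ZNF524 (chr19:55600022-55603138, plus strand) had 31.1, 31.3 and 37.0 CPM with 8p, against 20.9, 19.1 and 25.2 CPM in controls (0.61, SE 0.12, adjusted p = 2.00e-04, edgeR), and overlaps FIZ1 on the other strand.

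**Figure D4:**
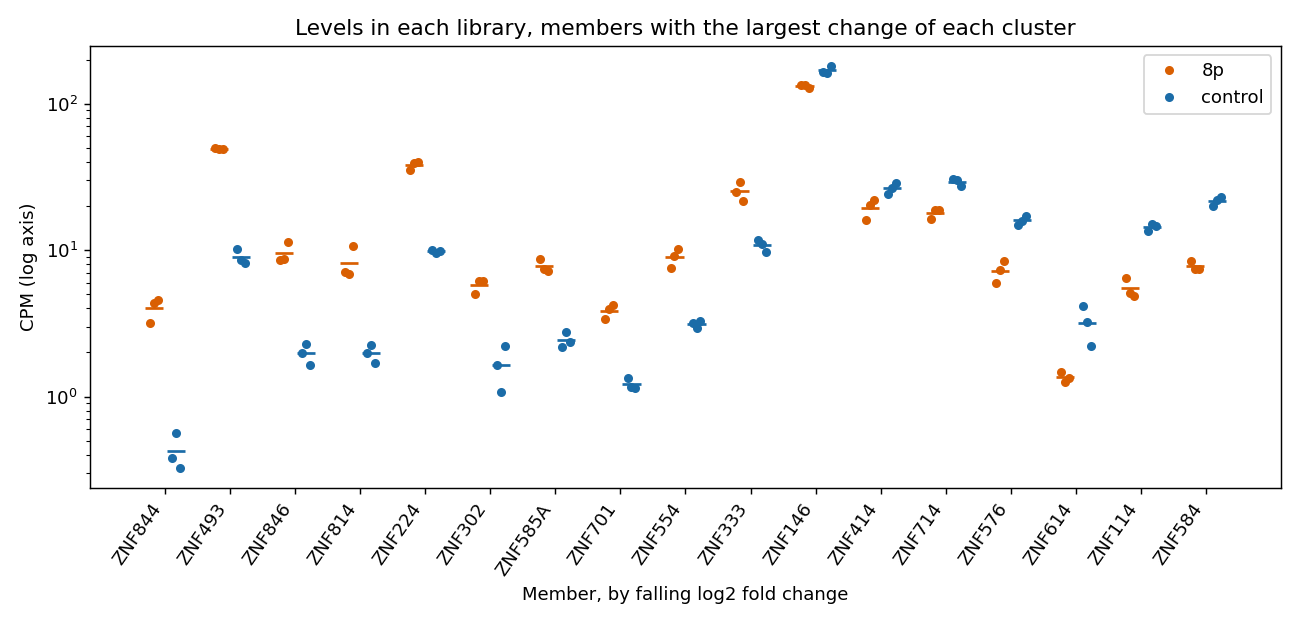
Level of named chromosome 19 ZNF genes in each library, in CPM on a log axis, with the 3 8p libraries left of the 3 control libraries for each gene. Short lines are group means. The genes from ZNF844 to ZNF333 lie higher with 8p and those from ZNF146 to ZNF584 lower, with no overlap between groups.

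Genes known for the silencing of transposable elements were mixed. ZNF91 and ZNF93, which are known to repress SVA and LINE-1 elements, lie in cluster 4 and had no count in any library. ZNF417 and ZNF587, a pair of close paralogs in cluster 9 known to act on the endogenous retrovirus HERVK, were higher by small amounts. ZNF417 had 5.26, 4.07 and 4.11 CPM with 8p, against 3.16, 3.41 and 2.94 CPM in controls (log2 fold change 0.50, SE 0.22, adjusted p = 0.0483, edgeR). ZNF587 had 24.9, 23.1 and 21.2 CPM with 8p, against 18.5, 18.8 and 16.9 CPM in controls (0.35, SE 0.11, adjusted p = 0.00835, edgeR).

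Neither group of values overlapped, but the calls were weak. That of ZNF417 was lost in DESeq2 (adjusted p = 0.219), with the replicate number as a block (adjusted p = 0.0767, edgeR) and on leaving out 8p replicate 1 (0.205) or 3 (0.0535) or any control library (0.0849 to 0.132). It was lost too with RLE factors (0.0564), no filter on low counts (0.202) or no mitochondrially encoded genes (0.0513). That of ZNF587 was lost in DESeq2 (0.0701), with no filter (0.111) and without 8p replicate 1 (0.0545). Of their transcript windows, 26.3% for ZNF417 and 12.2% for ZNF587 occur in another gene, mostly each other, so their reads are hard to separate.

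ZNF808 of cluster 8, known from human pancreas development as a silencer of MER11 elements, had 4.26, 1.74 and 4.59 CPM with 8p, against 3.71, 3.46 and 2.72 CPM in controls. The groups overlapped, with 8p replicate 2 the lowest library, and the log2 fold change was 0.08 (SE 0.31, adjusted p = 0.817, edgeR). Without that library it was 0.38, and without 8p replicate 3 it was −0.18, neither called.

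ZNF274 of cluster 9, which is known to bring SETDB1 to the 3′ ends of zinc finger genes themselves, had 31.7, 30.7 and 33.9 CPM with 8p, against 19.4, 18.2 and 18.0 CPM in controls (log2 fold change 0.79, SE 0.10, adjusted p = 1.96e-06, edgeR). ZNF175 of cluster 8, described as a repressor of HIV transcription in macrophages, had 27.6, 28.3 and 26.0 CPM with 8p, against 15.9, 16.2 and 15.7 CPM in controls (0.78, SE 0.10, adjusted p = 3.99e-06, edgeR). Both were higher in every 8p library. ZNF350, a partner of BRCA1, had 0, 3 and 0 counts with 8p, against 0, 1 and 0 in controls. The imprinted gene ZNF331 had 0 counts in every 8p library, against 0, 1 and 0 in controls. ZNF382, described as a repressor silenced in tumours, had 11, 2 and 10 counts with 8p, against 2, 0 and 8 in controls. None of these last 3 had enough counts to be tested.

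Genes for the proteins that KRAB zinc finger proteins work with changed in both directions. Of 24 corepressor genes, all tested, 8 were higher and 13 lower with 8p, where 37.9% and 36.9% of all tested genes were, and the median log2 fold change was −0.21. TRIM28, the scaffold that binds the KRAB domain, averaged 447 ± 32.0 CPM with 8p and 950 ± 30.3 CPM in controls (SD, n = 3 each; log2 fold change −1.09, SE 0.07, adjusted p = 2.04e-09, edgeR). SETDB1, the histone methyltransferase, averaged 58.5 ± 3.96 CPM with 8p and 47.8 ± 6.87 CPM in controls (0.29, SE 0.10, adjusted p = 0.0172, edgeR). Its call was lost in DESeq2 (adjusted p = 0.0863), with no filter on low counts (0.128) and on leaving out control replicate 1 (0.0572) or 3 (0.113, log2 fold change 0.16) or 8p replicate 1 (0.0985) or 3 (0.0547).

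The largest changes of the corepressor list were lower. UHRF1, which recruits the maintenance DNA methyltransferase, averaged 53.0 ± 2.31 CPM with 8p and 261 ± 20.1 CPM in controls (SD, n = 3 each; log2 fold change −2.30). SUV39H1, a methyltransferase of histone H3, averaged 11.1 ± 0.606 CPM with 8p and 43.4 ± 2.92 CPM in controls (−1.97). On the higher side, ATF7IP, the partner that stabilises SETDB1, averaged 54.4 ± 1.30 CPM with 8p and 34.8 ± 3.99 CPM in controls (0.64). MORC2, which works with the HUSH complex, averaged 54.2 ± 4.32 CPM with 8p and 38.5 ± 1.34 CPM in controls (0.49). Each of these 4 genes was called, and their values of the 2 groups did not overlap.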

How the data were processed

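The authors deposited raw gene counts of 6 libraries (3 with 8p, 3 control) with symbols, GRCh38 positions and lengths. Per the submitters' processing notes, the build was hg38 and the tools were edgeR 3.22.5, DESeq2 1.20.0, featureCounts 1.5.0-p3 and HISAT2 2.0.5. All 58735 identifiers and positions equalled GENCODE release 29. The labels' protocol names poly(A) capture or ribosomal RNA removal without saying which, and whether reads were counted by strand is not given in its text. That protocol describes the extraction of genomic DNA and not of RNA, although the labels give RNA as the molecule. The symbols of 27 genes read as dates, so genes were joined by identifier.

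Counts were analysed in R 4.3.3 with edgeR 4.0.16 (quasi-likelihood F test), TMM factors, filterByExpr and group as the only term. P-values were adjusted by Benjamini-Hochberg over all 13822 genes tested, and the standard error is the log2 fold change divided by the square root of F. CPM and RPKM use TMM-scaled library sizes, and RPKM the deposited gene length. TMM rests on the assumption of few changed genes, and 74.7% were called here. KRAB A-box and C2H2 patterns were sought in the translated longest GENCODE 29 coding sequence, the KRAB box within the first 200 residues. Shared sequence is the percent of 100-base windows of the longest transcript, 10 bases apart, found in transcripts of another gene. Promoters were the first listed RefSeq start of each gene.

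The genes, lists and tests were chosen with earlier results of these data known. Genes named are, per cluster and outside clusters, the called gene with the largest rise and the largest fall (mean log2 CPM at least 1, groups not overlapping), the 3 highest per length, genes with known roles, TRIM28, SETDB1 and the 2 most changed corepressor genes in each direction. ZNF536 and the genes of the promoter comparison were added after seeing values or sequences. Alternatives were DESeq2 1.42.0, limma-voom (limma 3.58.1), other scalings, filters and gene sets, a block, thinning and leaving out each library. The pipeline was run on simulated counts in which few genes changed, up or down at random. That run cannot check the scaling where most genes are called, as here. Totals of 14972069 to 16210861 counts with 8p and 18834611 to 23485628 in controls leave genes of few counts less precise with 8p.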

Additional observations from a re-analysis of the deposited data

How the results depend on the processing

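The 150 tested genes had 82 higher and 23 lower calls, and each alternative kept more higher than lower. DESeq2 gave 72 and 23, limma-voom 85 and 24, upper quartile scaling 97 and 19 and no filter on low counts 75 and 28. The genes tested differ between these fits, with 167 of the zinc finger genes tested in DESeq2 and 180 with no filter. Leaving out 1 library gave 73 to 83 higher and 21 to 26 lower, with a median log2 fold change of 0.47 to 0.53. That median, 0.49, was 0.68 with upper quartile scaling and 0.39 with no filter. Upper quartile scaling moved the median of all tested genes to 0.22, against 0.03 with TMM, a shift that all genes share. The median of the zinc finger genes lay above that of all tested genes by 0.46 with TMM, 0.28 in DESeq2 and 0.25 with no filter. In all, 13822 genes were tested in the main fit, 19834 in DESeq2 and 26595 with no filter. These values thus differ in the genes compared as well as in the method. The number higher in cluster 3 ran from 9 with DESeq2 to 15 with upper quartile scaling, that in cluster 7 was 7 at the least, without control replicate 3 or 8p replicate 1, and those in clusters 8 and 9 were 13 and 26 at the most. The number lower in cluster 2 was 0 with upper quartile scaling, that in cluster 1 was 2 with no filter, and that in cluster 4 was 1 with upper quartile scaling, with protein-coding genes alone, with thinned libraries and at an adjusted p under 0.01, and 3 with RLE factors and with no filter. On leaving out 1 library the number lower ran from 0 to 2 in cluster 1, 1 to 2 in clusters 4 and 6 and 2 to 4 in cluster 8. The cause of these moves was not tested. No result changed sign past the threshold. Without a strand setting, genes that overlap on opposite strands cannot be told apart.

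The replicate numbers gave no sign of pairing the samples: deviations of same-numbered 8p and control libraries correlated at −0.01, −0.02 and −0.04. With the replicate number as a block 79 genes were higher and 23 lower, and no library correlated best with its own number.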
